A study of Mus musculus with 18 samples.

Results

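The genes described here encode the non-muscle myosin II chains and a pair of unconventional myosins of mouse embryonic stem cells (mESCs). They were taken by gene symbol and are 9 of the 46078 annotated mouse genes in the count table: the heavy chains Myh9, Myh10 and Myh14, the essential light chain Myl6, the regulatory light chains Myl9, Myl12a and Myl12b, and the unconventional myosins Myo1e and Myo10. All 9 passed the filter on low counts and were among the 13438 protein-coding genes tested. Wild-type mESCs (129m wt in the labels) were grown for 24 h in serum and LIF on StemBond hydrogels. The paper's methods name E14 among its mESC lines but do not tie it to these samples. StemBond hydrogels are polyacrylamide gels carrying the co-factor AHA, whose carboxyl groups anchor the fibronectin coating. Soft gels of about 0.75 kPa and stiff gels of 160 kPa were each made with 16 (low), 48 (mid) or 80 mM (high) AHA, so that stiffness and the tethering of the extracellular matrix (ECM) varied independently. Each of the 6 groups had 3 RNA-seq libraries, and all groups shared the cell line, medium, coating and time. Replicate 1 of the soft, high AHA group carried 1.37% of ERCC spike-in counts against 0.607 to 0.725% in the other 17 libraries. It was left out of the fits, which leaves 2 libraries in that group. Protein-coding counts per library ranged from 4086447 to 6502650. Nothing in the labels says whether the 3 samples of a group were separate cultures, so the p-values measure the spread between these samples. The stem cell label was checked on Pou5f1, Nanog, Sox2, Zfp42, Esrrb and Sall4, all counted in every library, with Pou5f1 between 513 and 598 CPM (counts scaled to a common library size, defined with the processing).

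Non-muscle myosin II is an actin motor built from a pair of heavy chains, each carrying an essential and a regulatory light chain. It assembles into bipolar filaments that pull on actin, and its activity is switched on by phosphorylation of the regulatory light chain by myosin light chain kinase and other kinases. Myosin II tension at the cell cortex and at cell-matrix contacts is widely used as a readout of how cells respond to the stiffness of their substrate. Unconventional myosins work without filaments: Myo1e links membranes to actin during endocytosis and at adhesions, and Myo10 is the motor found at the tips of filopodia.

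The members lie at separate loci apart from 1 pair of neighbours. In GRCm38, the build of the counts, Myh9 occupies chr15:77760587-77842175 on the minus strand, Myh10 chr11:68691559-68816632 on the plus strand and Myh14 chr7:44605803-44670843 on the minus strand. Myl6 is at chr10:128490860-128494145 (minus), Myl9 at chr2:156775420-156781658 (plus), Myo1e at chr9:70207350-70399766 (plus) and Myo10 at chr15:25622525-25813673 (plus). Myl12b (chr17:70973133-70990890, minus) and Myl12a (chr17:70993656-71002878, minus) are next to each other and encode near-identical proteins. Of the 50-base stretches in Myl12a transcripts, 21.1% also occur in transcripts of another gene, chiefly Myl12b and Myom1. The share was 8.76% for Myl12b and 8.38% for Myl6, the latter shared with predicted genes such as Gm5526. It was at most 0.689% for the 3 heavy chains and 0 for Myl9, Myo1e and Myo10, so values of Myl12a, Myl12b and Myl6 are less certain than those of the other 6 genes. Exons of Myom1 on the opposite strand cover 6.16% of Myl12a exon sequence, and whether counting used the strand is not given in the sources used here.

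All 9 members had a RefSeq promoter window (GRCm38.p6), 11 windows in all since Myl6 and Myo10 have more than 1 annotated start. Their 250 bases before the start were searched on both strands for the CArG box, the site bound by serum response factor (SRF), and for GGAATG, the core bound by TEAD factors, because both factors are known to act on cytoskeletal genes. The CArG box was present in 3 of the 11 windows, against 1.47% of 32851 promoter windows, and GGAATG in 2 of the 11, against 12.6%. A match is a description of these letters only. The window of Myh10, a gene also lower on soft substrates, is not shown because it begins inside an annotated exon of Myh10. The windows of Myh9 and Myo1e are shown because these genes were lower on soft substrates. That of Myl9 is shown because it holds a CArG box, as Myo1e does. Each is written 5′ to 3′ on the strand of its gene, covers only bases outside the gene's annotated exons, and has any CArG box in capitals.
Myh9, chr15:77842176-77842425, minus strand: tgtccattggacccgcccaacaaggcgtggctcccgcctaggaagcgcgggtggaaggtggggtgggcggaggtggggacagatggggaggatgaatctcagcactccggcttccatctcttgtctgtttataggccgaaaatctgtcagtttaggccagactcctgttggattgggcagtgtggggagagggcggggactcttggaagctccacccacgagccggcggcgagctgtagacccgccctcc
Myo1e, chr9:70207100-70207349, plus strand: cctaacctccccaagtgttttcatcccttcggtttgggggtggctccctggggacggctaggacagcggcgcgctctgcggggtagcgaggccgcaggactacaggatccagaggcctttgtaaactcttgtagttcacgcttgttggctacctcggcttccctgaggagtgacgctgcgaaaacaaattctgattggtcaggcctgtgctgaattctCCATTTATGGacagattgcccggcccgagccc
Myl9, chr2:156775214-156775419, plus strand: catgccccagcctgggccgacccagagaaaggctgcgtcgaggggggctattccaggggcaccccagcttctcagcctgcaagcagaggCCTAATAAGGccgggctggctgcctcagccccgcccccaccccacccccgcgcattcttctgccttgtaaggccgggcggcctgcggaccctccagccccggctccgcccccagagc
The Myo1e box, CCATTTATGG, starts 32 bases before the RefSeq start. The Myl9 box, CCTAATAAGG, starts 161 bases before the RefSeq start of Myl9, which lies downstream of the GENCODE gene start given above. The third, CCTTATATGG, belongs to the downstream start of Myl6 (chr10:128493050-128493059) and falls inside an annotated exon of Myl6. No CArG box was found in the windows of Myh9, Myh10, Myh14, Myl12a, Myl12b or Myo10. The 2 matches to GGAATG were in the windows of Myh10, on the reverse strand 7 bases before its RefSeq start, and of the downstream Myo10 start.

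Myh9 was the most abundant of the 9 genes in mESCs. Levels between genes are given as CPM per kilobase of merged exon over the 17 fitted libraries. Myh9 reached 188 ± 12.5 (SD, n = 17), 2.91 times the level of Myh10 at 64.5 ± 4.66. Myo10 followed at 54.4 ± 2.24, then Myl12a at 29.1 ± 2.62 and Myo1e at 19.6 ± 1.37. Myl6 (11.6 ± 1.27), Myl12b (11.6 ± 1.11) and Myl9 (10.8 ± 1.70) could not be ordered, since they lay within their spread of one another. Myh14, the heavy chain of the third isoform, was lowest at 6.29 ± 0.744. Merged exons count every annotated transcript, which lowers small genes with long alternative exons. Sequence shared with other genes may also lower the counts of Myl6, Myl12a and Myl12b, by an amount that was not tested. Per kilobase of the principal transcript, a length chosen after the values were seen, Myl6 was at 55.8 ± 6.09, between Myo10 (67.7 ± 2.78) and Myl12a (50.4 ± 4.55), while Myh9, Myh10 and Myo10 stayed the top 3 and Myh14 the lowest.

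**Figure D1:**
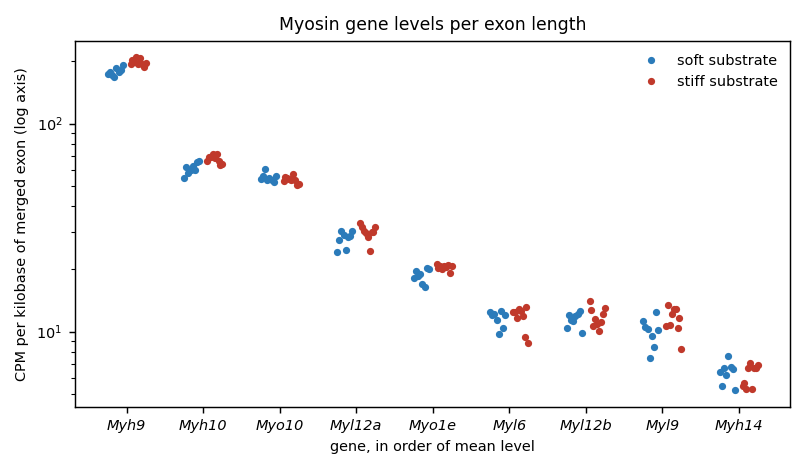
Level of each myosin gene in each of the 17 fitted libraries, as CPM per kilobase of merged exon on a log axis, with genes in order of their mean and soft and stiff libraries side by side. Myh9 lies between 167 and 208 in all libraries, and Myh14 between 5.25 and 7.67.

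Myh9, the heavy chain of myosin IIA, was lower on soft than on stiff substrates at low and at mid AHA. At low AHA the 3 soft libraries held 2230.4, 2288 and 2228 CPM and the 3 stiff libraries 2508, 2599.6 and 2565 CPM. The mid AHA libraries held 2153, 2372 and 2277 CPM on soft and 2694, 2507 and 2671 CPM on stiff substrates. Soft and stiff libraries did not overlap at either concentration. At high AHA the 2 fitted soft libraries were at 2336 and 2463 CPM, within reach of the stiff libraries at 2512, 2402 and 2518 CPM, and the soft library left out of the fits was at 2375 CPM. The log2 fold change (soft minus stiff) was −0.19 ± 0.032 (SE) at low AHA, with an adjusted p of 7.83e-06, and −0.21 ± 0.032 at mid AHA, with an adjusted p of 3.08e-07. At high AHA it was −0.046 ± 0.036 (95% interval −0.12 to 0.024, adjusted p = 0.72), and it moved with single libraries, to −0.086 (adjusted p = 0.568) without soft replicate 3 and −0.017 (adjusted p = 0.954) without soft replicate 2. Averaged over the 3 AHA concentrations the difference was −0.15 ± 0.019, or 9.72% lower on soft substrates, with an adjusted p of 3.57e-10, and 7 of 8 soft values were under the lowest stiff value. All adjusted p-values are from edgeR's quasi-likelihood test, with Benjamini-Hochberg adjustment over the 13438 tested genes. In these bulk samples, fewer cells with a transcript and less of it per cell cannot be told apart.

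Myh10, which encodes the heavy chain of myosin IIB, was likewise lower on soft substrates at low and at mid AHA. Soft libraries at low AHA held 573, 646 and 607 CPM, against 694, 722 and 725 CPM on stiff substrates. At mid AHA the values were 624, 653 and 626 CPM on soft and 743, 712 and 744 CPM on stiff substrates. Again soft and stiff libraries were separate at both concentrations. At high AHA they were mixed, with 681 and 688 CPM on soft and 689.6, 663 and 670.1 CPM on stiff substrates, and 643 CPM in the soft library left out. The log2 fold change was −0.23 ± 0.039 at low AHA (adjusted p = 7.65e-06, edgeR), −0.21 ± 0.039 at mid AHA (adjusted p = 7.84e-05) and 0.02 ± 0.044 at high AHA (95% interval −0.066 to 0.11, adjusted p = 0.934). Leaving out single libraries of the high AHA groups gave 0.0087 to 0.037 for the last of these. The averaged difference was −0.14 ± 0.024, or 9.2% lower on soft substrates (adjusted p = 1.86e-06), with 6 of 8 soft values under the lowest stiff value.

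The levels of Myh10 at high and low AHA were also compared within each stiffness. On soft substrates its log2 fold change from low to high AHA was 0.17 ± 0.044 (95% interval 0.082 to 0.25) and on stiff substrates −0.081 ± 0.039 (95% interval −0.16 to −0.0037). Neither passed the threshold, with adjusted p-values of 0.063 and 0.813 in edgeR. A test of whether the 3 soft minus stiff differences of a gene are equal gave an adjusted p of 0.0942 for Myh10 and 0.305 for Myh9 in edgeR. For Myh10 this test and that of high against low AHA (soft) were called with DESeq2, the former right at the threshold (adjusted p = 0.05 after rounding) and the latter with an adjusted p of 0.0393, and both passed without replicate 2 of the soft, low AHA group (adjusted p = 0.0131 and 0.0127). With all 18 libraries neither passed (adjusted p = 0.148 and 0.109).

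Myh14, the heavy chain of myosin IIC, gave a mixed picture at 167 to 318 counts per library. Its soft libraries ranged from 38.2 to 55.8 CPM (median 47.3, n = 8) and its stiff libraries from 38.5 to 51.6 CPM (median 48.8, n = 9). The averaged log2 fold change was 0.035 ± 0.064 (95% interval −0.091 to 0.16, adjusted p = 0.83). At low AHA it was 0.18 ± 0.11 (adjusted p = 0.509, edgeR) and at mid AHA 0.11 ± 0.10 (adjusted p = 0.739). At high AHA the soft libraries (48.2 and 38.2 CPM) lay below the stiff ones (48.8, 48.9 and 50.4 CPM), but the difference of −0.18 ± 0.12 did not pass the test (adjusted p = 0.63).

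The counts of Myh9 relative to Myh10 within a library need no scaling between libraries and stayed nearly level. There were 3.6 Myh9 counts for each Myh10 count on soft substrates (SD 0.145, range 3.43 to 3.89, n = 8) and 3.61 on stiff substrates (SD 0.0681, range 3.52 to 3.76, n = 9). The lowest ratio was in a soft, high AHA library and the highest in a soft, low AHA library, and the soft and stiff ranges overlapped.

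**Figure D2:**
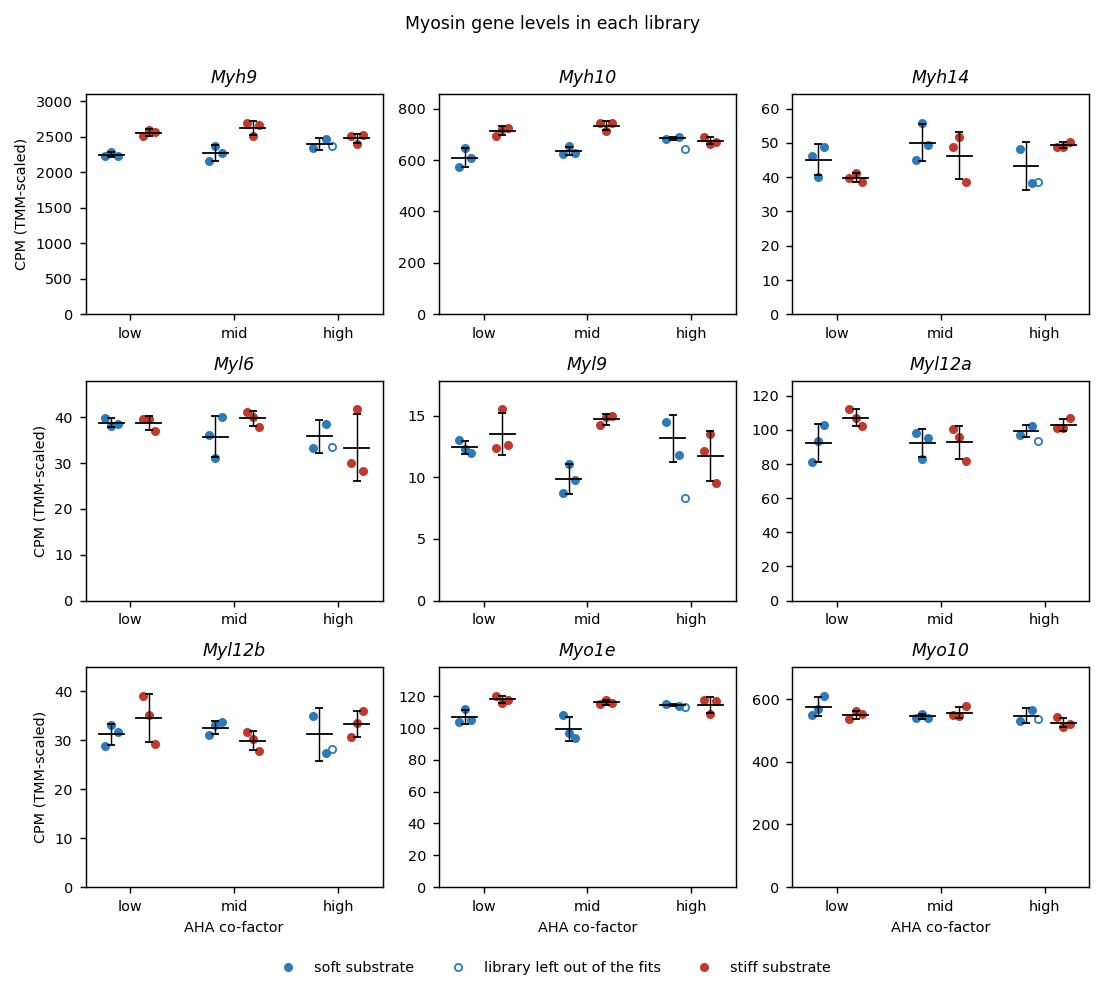
CPM of each of the 9 genes in each library by AHA concentration, with soft substrates in blue and stiff in red, black lines for group means and bars for the SD over 3 libraries (2 in the soft, high AHA group). The open circle is the library left out of the fits, and Myh9 and Myh10 on soft substrates lie below stiff at low and mid AHA and meet them at high AHA.

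The light chains were counted far less often than the main heavy chains, and none of the 4 passed the test in the averaged comparison. Myl12a, a regulatory light chain found in most cells, had 404 to 670 counts per library. At low AHA its soft libraries held 81.0, 93.2 and 103 CPM and its stiff libraries 112, 107 and 102 CPM, so that the highest soft library overlapped the lowest stiff library. The log2 fold change there was −0.21 ± 0.076 (adjusted p = 0.132), and it rested on single libraries. Without soft replicate 3 it was −0.29 (adjusted p = 0.0374, edgeR), without soft replicate 1 it was −0.13 (adjusted p = 0.633) and without stiff replicate 1 it was −0.17 (adjusted p = 0.444). At mid AHA the difference was −0.009 ± 0.076 and at high AHA −0.053 ± 0.084. The average was −0.091 ± 0.046 (95% interval −0.18 to −0.00068, adjusted p = 0.239). Myl12b, the neighbour of Myl12a, had 138 to 234 counts per library and an averaged difference of −0.036 ± 0.074 (95% interval −0.18 to 0.11, adjusted p = 0.852). The averaged intervals of both genes include the −0.15 of Myh9.

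Myl9, the regulatory light chain best known from smooth muscle, had the widest difference of the members at 1 AHA concentration but also the fewest counts, 54 to 91 per fitted library. At mid AHA its soft libraries were at 8.69, 11.1 and 9.80 CPM and its stiff libraries at 14.2, 14.9 and 15.0 CPM, without overlap. The log2 fold change was −0.58 ± 0.19 (95% interval −0.96 to −0.20) and did not pass after adjustment (adjusted p = 0.0845, edgeR). The average was −0.16 ± 0.12 (95% interval −0.39 to 0.062, adjusted p = 0.454), an interval that includes the −0.15 of Myh9. The low and high AHA values rested on single libraries. At low AHA the log2 fold change was −0.11 ± 0.19, or −0.0061 without stiff replicate 2. At high AHA it was 0.19 ± 0.21, with a range of 0.015 to 0.32 on leaving out single libraries and −0.0033 with all 18 libraries. The soft, high AHA library left out of the fits was at 8.34 CPM, under the 14.5 and 11.8 CPM of the other 2. Counts of Myl9 per count of Myl12a and Myl12b together were 0.0797 ± 0.0146 (SD, n = 3) on soft and 0.12 ± 0.0147 (n = 3) on stiff substrates at mid AHA. The order was the other way at low AHA (0.102 ± 0.0152 on soft, n = 3, and 0.0956 ± 0.0137 on stiff, n = 3) and at high AHA (0.101 ± 0.0133, n = 2, and 0.0864 ± 0.0173, n = 3), and the ranges overlapped at both. Over all AHA concentrations the ratio was 0.0932 ± 0.0166 (n = 8) on soft and 0.101 ± 0.0202 (n = 9) on stiff substrates.

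Myl6, the essential light chain of non-muscle myosin II, had soft libraries between 31.1 and 40.0 CPM (median 38.2, n = 8) and stiff libraries between 28.3 and 41.7 CPM (median 39.7, n = 9), which overlapped. Its averaged log2 fold change was −0.0072 ± 0.071, with a 95% interval of −0.15 to 0.13 (adjusted p = 0.974, edgeR). Myl6 had 160 to 245 counts per library, and its interval reaches to the size of the Myh9 difference, which was therefore not detectable here.

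Myo1e was lower on soft substrates in the averaged comparison, at a margin that depended on the processing and on single libraries. At low AHA the soft libraries held 104, 112 and 105 CPM and the stiff libraries 120.4, 116 and 118 CPM. At mid AHA the values were 108, 96.8 and 93.6 CPM on soft and 115, 118 and 116 CPM on stiff substrates. Soft libraries lay below stiff ones in both cases, while at high AHA the soft libraries (115 and 114 CPM, and 113 CPM in the library left out) lay among the stiff libraries at 118, 109 and 117 CPM. The log2 fold change was −0.14 ± 0.069 at low AHA (adjusted p = 0.333, edgeR), −0.23 ± 0.069 at mid AHA (adjusted p = 0.0452) and −0.0038 ± 0.076 at high AHA (adjusted p = 0.994), the last between −0.037 and 0.019 on leaving out single libraries of the high AHA groups. The average was −0.12 ± 0.041, or 8.28% lower on soft substrates (adjusted p = 0.0367). Over 23 other settings the adjusted p of the average ran from 0.0172 to 0.0941, under the threshold in 10 of them, with a log2 fold change of −0.14 to −0.11. The mid AHA call was lost in 16 of 24 other settings.

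Myo10 had the smallest spread relative to its level of the 9 genes over the 17 libraries, and its soft libraries (531 to 611 CPM, median 553, n = 8) overlapped its stiff libraries (512 to 577 CPM, median 545, n = 9). The averaged log2 fold change was 0.032 ± 0.025, with a 95% interval of −0.016 to 0.081 (adjusted p = 0.506, edgeR). With 2126 to 3531 counts per library, the interval does not reach the difference of −0.15 seen for Myh9.

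**Figure D3:**
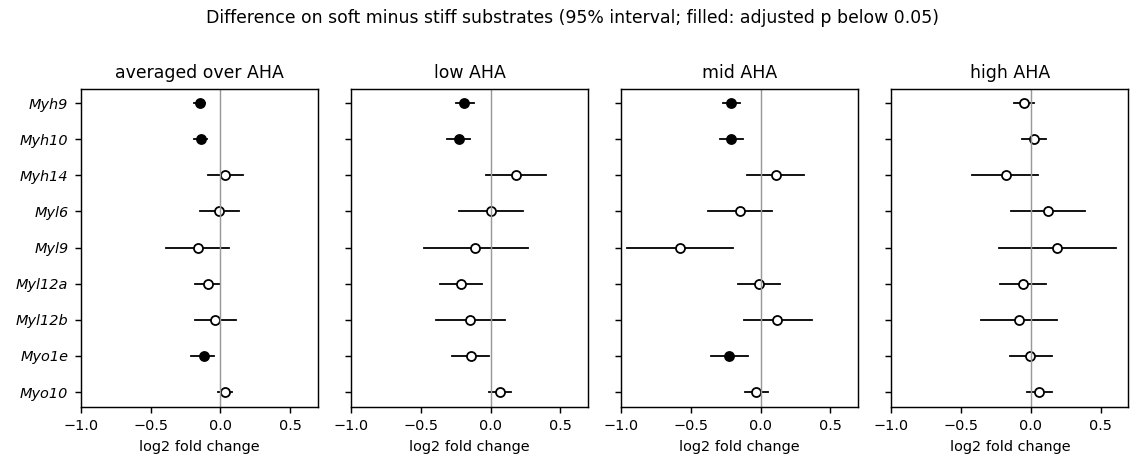
Log2 fold change of each gene on soft minus stiff substrates, averaged over AHA and at each AHA concentration, with 95% intervals. Filled points have an adjusted p below 0.05: Myh9 and Myh10 in 3 panels, Myo1e in the averaged and mid AHA panels, and none at high AHA, where Myh9 was at −0.046 and Myh10 at 0.02.

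Across the members, 3 of 9 were called lower on soft substrates in the averaged comparison and none higher, while 4.82% of all tested genes were called lower and 3.77% higher. The median log2 fold change of the 9 was −0.091, against 0.001 for all tested genes, and 7 of 9 were below 0, against 49.7% of all tested genes. The members were chosen with earlier results of these data known, so such counts describe them and are not a test. At low AHA 2 of 9 were called lower (Myh9 and Myh10), against 2.19% of tested genes (1.44% without soft, low AHA replicate 1). At mid AHA 3 of 9 were called lower (with Myo1e), against 1.85% (1.14% without soft, mid AHA replicate 2 and 1.21% without stiff, mid AHA replicate 1). At high AHA none of the 9 was called in either direction by edgeR or DESeq2, or at an unadjusted p under 0.05, where 0.841% of tested genes were called and 10.5% had such a p. The first share depended on single libraries. It was 2.58% with all 18 libraries, 0.303% without soft, high AHA replicate 3 and 0.381% without stiff, high AHA replicate 3. Soft libraries lay wholly below stiff libraries for 3 members at low AHA (Myh9, Myh10, Myo1e), against 9.6% of tested genes, for 4 at mid AHA (also Myl9), against 9.48%, and for 1 at high AHA (Myh14), against 12.4%. The high AHA comparison had 2 soft libraries, so its intervals are wider. With the library left out put back, the log2 fold change there was −0.051 for Myh9 (adjusted p = 0.529) and −0.0093 for Myh10 (adjusted p = 0.961).

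No member was called between AHA concentrations of the same stiffness by edgeR. On soft substrates, 0.253% of tested genes were called between low and high AHA, 0.067% between high and mid AHA and 0% between mid and low AHA. Single libraries moved the first of these shares, to 0.0145% without soft, high AHA replicate 2, 0.498% without soft, high AHA replicate 3 and 0.0597% without soft, low AHA replicate 1, the second to 0.0289% without soft, high AHA replicate 2, and the third to 0.0523% without soft, mid AHA replicate 3. On stiff substrates the shares were 0.00744% between high and low AHA, 0.00744% between high and mid AHA and 0% between mid and low AHA. Each of the first 2 is a single gene, and leaving out single libraries gave 0 to 0.112% and 0 to 0.0373%, both highest without stiff, high AHA replicate 1. The third was 0.00747% without stiff, low AHA replicate 1. Unadjusted p-values under 0.05 were found in the high against low comparison for 2 members on soft (8.51% of tested genes) and 3 on stiff substrates (6.04%). In the high against mid comparison they were found for 4 members on soft (6.81% of tested genes) and 5 on stiff substrates (5.83%). Between mid and low AHA they were found for 1 member on soft (6.1% of tested genes) and 2 on stiff substrates (4.99%). DESeq2 called Myh10 for high against low AHA (soft) and no other member in these 6 comparisons. The test of equal stiffness differences called none of the 9 in edgeR, against 0.0298% of tested genes (0.0895% without stiff, low AHA replicate 2, 0.0745% without soft, low AHA replicate 2 and 0.0448% without stiff, high AHA replicate 3), with 3 members at an unadjusted p under 0.05 (Myh9, Myh10 and Myl9), against 6.71% of tested genes. DESeq2 called Myh10 at the edge of the threshold. These comparisons share groups with those of stiffness and are not separate evidence.

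Among the other genes of the pathway, those that remove the phosphate of myosin II or control its assembly were called about as often as all tested genes. Of 13 phosphatase subunits and assembly factors, 11 were tested and 1 was called, against 8.59% of all tested genes. It was Mprip, which binds myosin phosphatase, at −0.1 ± 0.029 (adjusted p = 0.0161). The phosphatase subunits Ppp1r12b (0.25 ± 0.10, adjusted p = 0.123) and Ppp1r12c (0.067 ± 0.045, adjusted p = 0.427) did not pass, and the median of the list was −0.035.

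Other unconventional myosins were called in both directions. Of 24 listed, 23 were matched by symbol, 19 were tested, 2 were called lower (4.82% of all tested genes) and 3 higher (3.77%) on soft substrates, with a median of 0.035. Myo1c, a class I motor like Myo1e that links membranes to actin, was at −0.31 ± 0.028 (adjusted p = 1.25e-17), with soft libraries at 278 to 313 CPM and stiff libraries at 339 to 395 CPM. It was also called at each AHA concentration, with differences of −0.36, −0.28 and −0.29 at low, mid and high AHA. Myo6, which moves towards the minus end of actin, was at 0.34 ± 0.094 (adjusted p = 0.0083), and Myo9a at 0.15 ± 0.043 (adjusted p = 0.0137). The other 2 calls, named after their values were seen, were Myo18a at −0.09 ± 0.029 (adjusted p = 0.0359) and Myo18b at 0.55 ± 0.18 (adjusted p = 0.0379, 2.65 to 9.31 CPM). Of the 19 other myosin heavy and light chain genes, mostly those of muscle, 9 were tested and none was called, with a median of −0.10. The 3 with the lowest p were Myh13 (0.25 ± 0.11, adjusted p = 0.154), Myh3 (−0.20 ± 0.11, adjusted p = 0.309) and Myh7 (−0.24 ± 0.14, adjusted p = 0.364).

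**Figure D4:**
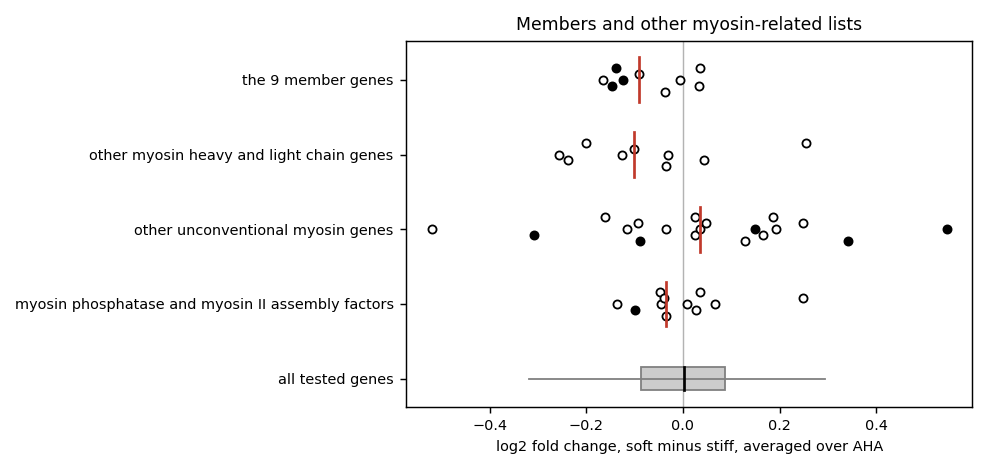
Log2 fold change on soft minus stiff substrates, averaged over AHA, for the tested genes of each list, with filled points for an adjusted p below 0.05 and a red line at the list's median. The bottom bar gives the 25th to 75th percentile of all tested genes (−0.09 to 0.09) and its line the 5th to 95th (−0.32 to 0.29), a range within which all 9 members lie.

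The genes whose pattern over the 6 group means was nearest to a called member were searched among 9224 tested genes with a mean of at least 10 CPM, by the root mean square difference of centred log2 CPM. For Myh9 they were Tjp1 (0.017), the tight junction scaffold ZO-1, Prrg4 (0.018) and Ybx3 (0.021). For Myh10 they were Nhsl1 (0.023), the endocytic adaptor Dab2 (0.026) and Jade2 (0.026). Those nearest to Myo1e were Surf4 (0.015), Mtx3 (0.022) and Gmfb (0.025). Of these genes, Tjp1, Ybx3, Jade2 and Surf4 were called lower on soft substrates in the averaged comparison. Prrg4, Nhsl1, Dab2, Mtx3 and Gmfb were not called (adjusted p = 0.063 to 0.417, edgeR). Likeness over 6 means is a description of these samples only.

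Marker genes of other cell types moved with stiffness as well, and their part in the differences of Myh9, Myh10 and Myo1e was not tested. The summed level of the 6 stem cell markers was 2297 to 2465 CPM on soft and 2089 to 2203 CPM on stiff substrates, with 5 of 6 called higher on soft and Pou5f1 at 0.033 ± 0.025 (adjusted p = 0.514). The 5 smooth muscle markers summed to 131 to 163 CPM on soft and 167 to 189 CPM on stiff substrates, and 3 were called lower on soft: Smtn, Lmod1 and Cnn1. Myh11, the smooth muscle heavy chain, was at 1.51 to 5.75 CPM. The 8 fibroblast or feeder markers summed to 119.8 to 204 CPM on soft and 170.5 to 246 CPM on stiff substrates, which overlapped. Most of this sum was Col1a1 (80.6 to 151 CPM on soft and 127 to 196 CPM on stiff substrates), the 1 marker of the 6 tested that was called, lower on soft. Averaged over AHA, 4 of the 6 were below 0, with a median log2 fold change of −0.064 and values from −0.49 (Col1a1) to 0.54 (Postn). Col1a1, like Myh9 and Myh10, was called lower at low and mid AHA and not at high AHA. It was at −0.76 at low, −0.70 at mid and −0.0089 at high AHA. The median of the 6 was −0.086, −0.25 and 0.34, with 3, 6 and 2 of the 6 below 0. At low AHA Postn (0.78), Pdgfra (0.45) and Thy1 (0.14) were above 0. The sums for striated muscle (227 to 279 and 218 to 308 CPM), primitive endoderm (15.3 to 19.0 and 12.9 to 18.9 CPM) and trophectoderm (24.3 to 32.0 and 27.9 to 37.0 CPM) overlapped between soft and stiff substrates, with none of their tested markers called. None of the markers in these lists was at 0 in every fitted library.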

How the data were processed

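Total RNA of 18 mESC samples was sequenced. Per the labels and the study's methods, the authors trimmed reads with Trim Galore 0.4.4, aligned them to GRCm38 with GSNAP and deposited raw HTSeq counts per Ensembl gene, without normalization. The HTSeq version and strand setting are not given in the sources used here. Symbols and biotypes came from the GENCODE annotation of GRCm38. Libraries with an ERCC share above 1.5 times the median were left out (1 of 18). Protein-coding genes passing filterByExpr (minimum count 10) were fitted together over 17 libraries in 6 groups with edgeR 4.0.16 (TMM scaling, robust quasi-likelihood test, R 4.3.3), and p-values were adjusted by Benjamini-Hochberg over 13438 genes with a threshold of 0.05. CPM are counts scaled to the TMM-adjusted protein-coding library size, and intervals are 95% from the fit. The averaged difference weights the 3 AHA concentrations equally. Replicates differed by a coefficient of biological variation of 5.35%. Chi-square values per degree of freedom between replicates of all 18 libraries, 1.82 to 3.07, were above the level of sampling noise alone. The highest was in a pair with the library left out, and the highest between fitted libraries was 2.9. The fit was tested on simulated data. Alternatives were DESeq2 1.42.0, other scalings and filters, all 18 libraries, the compared groups alone, and each library left out in turn. All 9 members are named, as are the 3 genes with the lowest p of each other myosin-related list reported and the 3 nearest profiles of each called member. The members and lists were chosen with earlier results of these data known. The length of the principal transcript was added as an alternative after the data were seen. A further list of regulators is not reported here.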

Additional observations from a re-analysis of the deposited data

Results flagged for a closer look

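The test of equal soft minus stiff differences across AHA (edgeR's quasi-likelihood test) gave unadjusted values of 4.2e-05 for Myh10, 0.00172 for Myh9 and 0.0269 for Myl9. After Benjamini-Hochberg adjustment the p-values were 0.0942, 0.305 and 0.723, so none passed the threshold. Over all alternatives the unadjusted values ran from 7.85e-06 to 0.000743 for Myh10, from 0.000372 to 0.0663 for Myh9 (highest without soft, high AHA replicate 3) and from 0.017 to 0.125 for Myl9. That of Myl9 was above 0.05 without soft, high AHA replicate 2 (0.125), soft, mid AHA replicate 1 (0.082), stiff, high AHA replicate 3 (0.0744) or stiff, mid AHA replicate 2 (0.0508), and with all 18 libraries (0.0967). The differences at low, mid and high AHA were −0.23, −0.21 and 0.02 for Myh10, −0.19, −0.21 and −0.046 for Myh9, and −0.11, −0.58 and 0.19 for Myl9 on the log2 scale.

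A single library stood apart from the others of its stiffness in 2 of 18 sets of libraries examined (9 genes on soft and on stiff substrates), where chance gives about 5%. Replicate 2 of the stiff, high AHA group had 109 CPM of Myo1e, the lowest of 9 stiff libraries. Replicate 3 of the soft, low AHA group had 611 CPM of Myo10, the highest of 8 soft libraries.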

How the results depend on the processing

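The calls of Myh9 and Myh10 as lower on soft substrates were kept in all 23 alternatives for the averaged comparison (log2 fold changes of −0.16 to −0.13 and −0.15 to −0.13) and in all 24 at low and at mid AHA. Myo1e was called in 10 of 23 for the average and in 8 of 24 at mid AHA, and its averaged call was lost on leaving out 11 of 17 single libraries, with DESeq2 (adjusted p = 0.0512) and with a filter of at least 2 counts (adjusted p = 0.0609, edgeR). Its mid AHA call was lost on leaving out 9 of 17 single libraries and in all 7 other settings. The number of members called between high and low AHA (soft), 0 in edgeR, was 1 with DESeq2 and 0 to 1 on leaving out single libraries. The test of equal differences likewise gave 0 in edgeR, 1 with DESeq2 and 0 to 1 on leaving out single libraries. In each case the call was Myh10, the library was replicate 2 of the soft, low AHA group, and the cause was not tested. Averaged differences changed sign on leaving out single libraries for 3 uncalled members, between −0.031 and 0.085 for Myh14, −0.043 and 0.049 for Myl6, and −0.11 and 0.016 for Myl12b. No paired analysis was possible because the labels give no replicate numbers that tie samples together. Depth limits the light chains and Myh14 most, at 54 to 670 counts per fitted library.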
